A study of Mus musculus with 36 samples.

Results

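The 36 mitotic genes described here are transcripts that peak in the G2 and M phases of the cell cycle. They were taken by symbol from a named list, and all 36 were found among the 54735 gene symbols of the deposited expression table. RNA was sequenced from mouse embryonic fibroblasts (MEFs), cultured connective tissue cells that divide readily. WT cells, a line with the kinase GCN2 deleted and a line with the kinase PERK deleted each had 4 groups: untreated; DMSO; AAS, which is starvation in RPMI SILAC medium without lysine or arginine; and thapsigargin at 200 nM. Treatments lasted 6 h, and each of the 12 groups of genotype and treatment had 3 libraries, 36 in all. GCN2 is the eIF2alpha kinase that senses uncharged tRNA, and PERK is the one that senses misfolded protein in the endoplasmic reticulum (ER), which thapsigargin causes by blocking the ER calcium pump. The labels give neither the control group of each stress nor the medium of the untreated cells during the treatment; starved cells were set against untreated cells, and thapsigargin, usually dissolved in DMSO, against DMSO. The labels name a single MEF cell line per genotype and call the libraries technical replicates. Genotype and line therefore cannot be told apart, and the p-values speak only of the spread among these replicate libraries.

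Cells that pass from G2 into mitosis switch on a shared set of genes late in the cycle. Their promoters often carry a cell cycle genes homology region (CHR), bound by the MuvB complex, which represses them as part of DREAM in resting cells and activates them with B-MYB and FOXM1 in dividing cells. Many also carry CCAAT boxes, the binding site of NF-Y. The products form the machinery of division: cyclin B with CDK1 starts mitosis, Polo and Aurora kinases build the spindle, kinetochore proteins hold chromosomes to it, and the anaphase-promoting complex ends it. In cultured fibroblasts the summed level of such transcripts is a common measure of proliferation. In bulk RNA, fewer cells in G2 and M and less of each mRNA per cell cannot be told apart, and that holds for every result here.

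Levels are in TPM, a unit that corrects for transcript length and gives every library the same total, so read depth is unknown and no counting error can be given. Pairs of libraries of the same group correlated at 0.962 to 0.988 across genes, and 0 pairs were identical. Untreated WT replicate 1 stood apart with 9.49% of its TPM in mitochondrial genes against 7.26 and 7.54% in the other untreated WT libraries, and starved PERK-deletion replicate 1 with 4.33% against 7.80 and 7.97%. Of 10 fibroblast markers, 9 reached a mean of 1 TPM in every WT group, 8 in every GCN2-deletion group and 6 or 7 in the PERK-deletion groups. Endothelial markers summed to at most 6.84 TPM, muscle markers to 4.45 TPM, blood and immune cell markers to 10.5 TPM and epithelial markers to 13.3 TPM in any library, and neural markers, which include the widely expressed Tubb3, to 45.4 TPM. Of 5 neural markers, 1 reached a mean of 1 TPM in every WT group. In the GCN2-deletion groups 2 or 3 did so, and in the PERK-deletion groups 3 or 4. Neural sums in the PERK-deletion libraries were 14.2 to 23.1 TPM. Eif2ak4, which encodes GCN2, was at 24.6 ± 3.81 TPM in untreated WT cells and 5.25 ± 0.619 TPM in the untreated GCN2-deletion line (mean ± SD, n = 3). Eif2ak3, which encodes PERK, was at 6.99 ± 0.878 TPM in untreated WT cells and 4.22 ± 0.353 TPM in the untreated PERK-deletion line. Neither transcript was lost, and TPM per gene does not show which exons remain.

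The transcript Atf4, which belongs to the stress pathway, is given for each line. Its level does not measure ATF4 protein or the activity of the pathway. Atf4, the transcription factor of the integrated stress response, rose in starved WT cells from 558 ± 22.4 to 1079 ± 4.55 TPM (log2 change 0.95, adjusted p = 6.3e-15). With GCN2 deleted it was at 322 ± 5.74 TPM before and 314 ± 15.6 TPM after starvation (adjusted p = 0.669). With PERK deleted it did not pass either, with 318 ± 21.6 TPM untreated and 322 ± 13.2 TPM starved (adjusted p = 0.881), although its Eif2ak4 level, 22.7 ± 3.29 TPM untreated, was close to that of WT. The effect of starvation on Atf4 differed between the PERK-deletion line and WT (difference -0.93, adjusted p = 9.21e-11), and the part of this in the results of that line was not tested. Under thapsigargin Atf4 rose by 1.33 in WT, by 1.54 with GCN2 deleted and by 0.57 with PERK deleted on the log2 scale, and the last differed from WT (difference -0.77, adjusted p = 2.64e-09).

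Promoter sequences are shown for the member with the highest mean level in each functional group, to let the CHR and CCAAT matches counted over the set be seen in place, or be seen to be missing, as in Birc5. RefSeq windows on GRCm38.p6, from 250 bases before to 50 bases after the annotated start, matched 31 of the 36 members; Aurkb, Ccna2, Cdc25c, Kif20a and Tpx2 are named only, and Kif2c is shown for the spindle group in place of Tpx2. The CHR was searched as TTTGAA or TTCGAA and the CCAAT box as CCAAT, both on either strand, and a CHR and a CCAAT match can share 1 base. Capitals mark matches, written as TTCAAA or ATTGG where the match is on the other strand. Each line gives the 150 bases that end at the base before the RefSeq start, 5′ to 3′ in the direction of transcription. The Kif2c window lies wholly inside the longer gene model of GENCODE, and for others the RefSeq and GENCODE starts differ.
Cdk1 chr10:69352913-69353062 (minus strand): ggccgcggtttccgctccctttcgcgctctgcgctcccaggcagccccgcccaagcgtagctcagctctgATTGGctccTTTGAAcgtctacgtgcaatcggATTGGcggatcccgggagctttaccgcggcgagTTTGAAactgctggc
Birc5 chr11:117849087-117849236 (plus strand): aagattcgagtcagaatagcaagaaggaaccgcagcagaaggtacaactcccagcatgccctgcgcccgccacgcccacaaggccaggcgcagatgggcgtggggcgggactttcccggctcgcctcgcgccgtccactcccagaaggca
Cenpa chr5:30666736-30666885 (plus strand): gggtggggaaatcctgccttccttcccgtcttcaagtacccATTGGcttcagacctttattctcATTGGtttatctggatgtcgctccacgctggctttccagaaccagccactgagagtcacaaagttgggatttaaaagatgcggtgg
Kif2c chr4:117178773-117178922 (minus strand): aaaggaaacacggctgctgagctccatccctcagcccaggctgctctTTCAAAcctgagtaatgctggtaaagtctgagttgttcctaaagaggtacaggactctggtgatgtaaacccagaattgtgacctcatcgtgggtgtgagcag
Racgap1 chr15:99651657-99651806 (minus strand): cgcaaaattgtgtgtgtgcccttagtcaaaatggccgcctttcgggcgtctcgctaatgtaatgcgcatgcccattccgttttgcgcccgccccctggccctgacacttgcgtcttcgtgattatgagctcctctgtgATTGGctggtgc
Ube2c chr2:164769779-164769928 (plus strand): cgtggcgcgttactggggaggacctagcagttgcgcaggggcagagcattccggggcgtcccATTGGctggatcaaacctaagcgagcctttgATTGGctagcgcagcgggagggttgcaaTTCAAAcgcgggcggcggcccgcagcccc
Top2a chr11:99024190-99024339 (minus strand): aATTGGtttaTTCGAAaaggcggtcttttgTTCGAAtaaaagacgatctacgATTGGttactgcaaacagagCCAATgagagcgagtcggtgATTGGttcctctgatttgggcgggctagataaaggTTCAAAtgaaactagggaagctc

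In Cenpa and Racgap1 the CHR match lay just after the start, and it is shown with 7 bases on each side.
Cenpa chr5:30666895-30666914 (plus strand): gtgatttTTTGAActgctgg
Racgap1 chr15:99651639-99651658 (minus strand): gcgtgatTTTGAAccggatc

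A CHR match was present in 84.8% of the 33 windows of the matched members, some of which have more than 1 annotated start, against 19.2% of all 32851 windows of that length, and a CCAAT match in 81.8% against 37.4%. Both together occurred in 75.8% of member windows and 7.52% of all windows, and 54.5% of member windows held at least 2 CCAAT matches against 11.7%. Birc5, whose product is survivin, is among the 9.09% of member windows with neither. Of the 38 CHR matches 27 lay within 50 bases of the start, with a median position of +3. CCAAT matches sat further upstream, at a median of -69.5, and 47 of 64 were between 120 bases and 1 base before the start. Among 70 windows of other mitotic genes the shares were 58.6% for CHR and 68.6% for CCAAT. For 37 windows of DNA replication and G1/S genes they were 16.2 and 59.5%, so the replication genes were nearer to all windows in CHR than in CCAAT. A match describes the letters in a window and not a bound site.

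**Figure D1:**
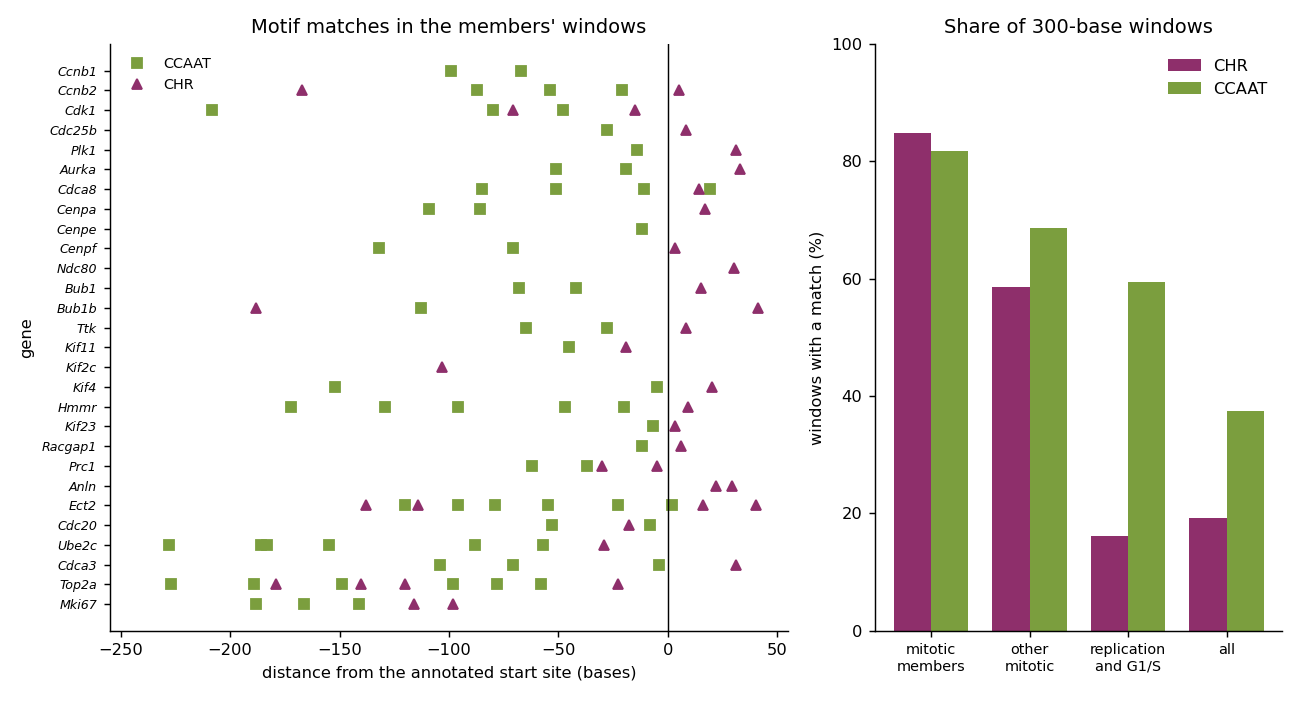
Left, positions of CHR (triangles) and CCAAT (squares) matches in each member's RefSeq window, as distance in bases from the annotated start; members without a match or a window are not drawn. Right, the percentage of windows with a match for the members, other mitotic genes, DNA replication and G1/S genes, and all windows; the CHR bar falls from 84.8% in the members to 16.2% in the replication genes.

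Summed over the 36 members, untreated WT cells held 4285 TPM (3 libraries, 4035 to 4519 TPM). Starved WT cells held 3040 TPM and thapsigargin-treated WT cells 2798 TPM, against 4081 TPM with DMSO. The GCN2-deletion sums were 4033 TPM untreated, 3453 TPM starved, 4095 TPM with DMSO and 3346 TPM with thapsigargin. The PERK-deletion sums were 4736, 4590, 5058 and 4945 TPM in the same order. Stressed libraries lay below every control library of their line in WT and in the GCN2-deletion line, whereas in the PERK-deletion line stressed and control libraries overlapped. The mean of the 40 DNA replication and G1/S genes did not follow this order: on the scale of log2(TPM + 1) relative to all libraries it was 0.030 in untreated, 0.0076 in starved and 0.13 in thapsigargin-treated WT cells, where the members stood at 0.090, -0.44 and -0.59.

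**Figure D2:**
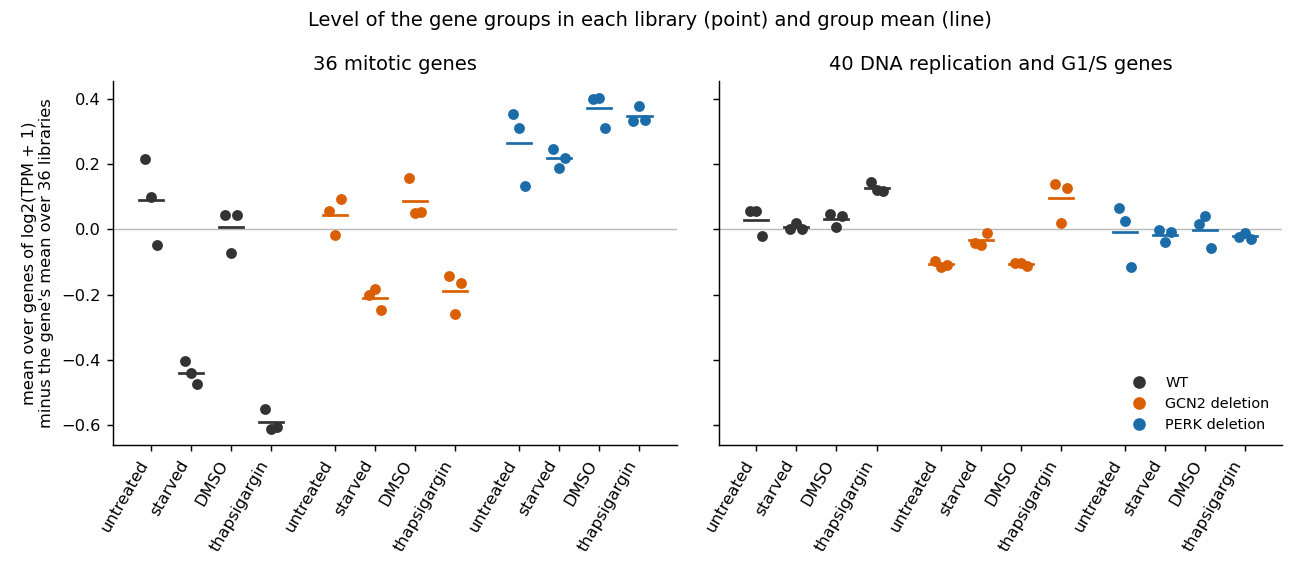
Each point is 1 library and each line a group mean; the y axis is the mean over genes of log2(TPM + 1) minus each gene's mean over 36 libraries, for the 36 mitotic genes (left) and 40 DNA replication and G1/S genes (right). On the left the group means of stressed WT cells are lowest, those of stressed GCN2-deletion cells next and the PERK-deletion means highest, with some overlap of single libraries among unstressed groups and PERK-deletion cells, while the right panel stays within a narrower range.

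Amino acid starvation lowered 32 of the 36 members in WT cells and raised 0, with a median log2 change of -0.48, a fall of 28.2%. Over all 16083 genes tested, which reached 1 TPM in at least 3 libraries, 17.4% were lower and the median was -0.047. Changes are on the scale of log2(TPM + 1), which understates those of genes at low level. A gene is called changed where limma's test on log2(TPM + 1) gave a Benjamini-Hochberg adjusted p under 0.05, and every adjusted p here is of that kind. The members' changes ran from -1.06 for Mki67 to 0.037 for Ndc80. Without untreated WT replicate 1, 31 members were lower.

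All 6 genes of the cyclin, CDK1 and phosphatase group fell. Cdk1, the kinase that drives entry into mitosis (ENSMUSG00000019942.13, chr10:69335146-69352938), was at 510.4, 553 and 555 TPM in untreated libraries and at 469.7, 449.7 and 430.4 TPM in starved ones. The groups did not overlap, yet the fall was the smallest among the members that passed (log2 change -0.26 ± 0.051 SE, adjusted p = 0.000241), and with median-of-ratios rescaling it did not pass (adjusted p = 0.0595). Its partners Ccnb1 and Ccnb2, the B-type cyclins, changed by -0.41 and -0.45, and Ccna2, the cyclin of S phase and early mitosis, by -0.38. The phosphatases that free CDK1 of its inhibitory phosphates changed more, and Cdc25b fell by 0.57 and Cdc25c by 0.75 on the log2 scale; with DMSO cells as the control Cdc25b did not pass (adjusted p = 0.057).

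The mitotic kinases and the chromosomal passenger complex, which corrects faulty attachments of chromosomes, fell in 5 of 5 genes. Plk1, Polo-like kinase 1 (ENSMUSG00000030867.7, chr7:122159439-122169873), was at 87.0, 96.1 and 97.9 TPM untreated and at 46.0, 46.4 and 46.2 TPM starved, so every starved library stood far below every untreated one (log2 change -1.003 ± 0.048 SE, adjusted p = 2.75e-15). Aurkb, the kinase of the passenger complex, changed by -0.73 and Aurka, the kinase of centrosomes, by -0.58. Birc5 (ENSMUSG00000017716.15, chr11:117849251-117855743) was at 203, 222 and 237 TPM untreated and 182, 176 and 179 TPM starved. The ranges were apart but the change was small (log2 change -0.30 ± 0.051 SE, adjusted p = 4.86e-05). Cdca8, which encodes borealin, changed by -0.35.

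At the kinetochore 6 of 8 genes fell. Cenpa, the histone H3 variant of centromeres (ENSMUSG00000029177.9, chr5:30666777-30674830), was at 209.7, 192 and 201 TPM untreated and 118, 124 and 119 TPM starved, with a wide gap between the groups (log2 change -0.74 ± 0.055 SE, adjusted p = 2.78e-11). Cenpf, a large protein of the outer kinetochore (ENSMUSG00000026605.14, chr1:189640606-189688086), stood at 55.2, 30.2 and 26.9 TPM untreated and 18.4, 17.6 and 17.0 TPM starved (log2 change -0.97 ± 0.19 SE, adjusted p = 0.000231). Its untreated replicate 1, the library with the high mitochondrial share, was far above the other controls, but all 3 controls lay above the starved libraries; fitted on these groups alone, its adjusted p was 0.0868. Cenpe, the kinetochore's motor, changed by -0.80. The checkpoint genes Bub1 and Bub1b, and Nuf2 of the NDC80 complex, changed by -0.43, -0.52 and -0.45. Bub1 did not pass with DMSO cells as the control (adjusted p = 0.242). Ttk, the kinase that starts checkpoint signalling, did not pass (log2 change -0.25, adjusted p = 0.0613) and neither did Ndc80 (log2 change 0.037, adjusted p = 0.815). Ndc80 is uncertain, since a near-identical expressed copy, 2700099C18Rik, was at a mean of 17.0 TPM against 41.5 TPM for Ndc80, and the quantification could divide reads between them.

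All 6 spindle motors and assembly factors fell. Tpx2, which activates Aurora A on the spindle (ENSMUSG00000027469.16, chr2:152847964-152895321), was at 117, 110.3 and 99.4 TPM untreated and 91.2, 86.6 and 85.3 TPM starved, with no overlap (log2 change -0.31 ± 0.066 SE, adjusted p = 0.000647). Hmmr changed by -0.79, Nusap1 by -0.75, the chromosome-borne kinesin Kif4 by -0.62, the microtubule-shortening kinesin Kif2c by -0.49 and the kinesin Kif11, which pushes the poles apart, by -0.31. The Kif11 libraries overlapped, and its call ended without any 1 of starved replicates 2 and 3 and untreated replicates 1 and 2 (adjusted p from 0.0608 to 0.23) and with DMSO cells as the control. Of the 6 genes of the central spindle and cytokinesis 4 fell. Racgap1, which with Kif23 forms centralspindlin (ENSMUSG00000023015.14, chr15:99620496-99651656), was at 212, 203 and 181 TPM untreated and 146, 147 and 144 TPM starved, again apart (log2 change -0.44 ± 0.065 SE, adjusted p = 5.95e-06). Prc1, which bundles the midzone microtubules, changed by -0.66. Ect2, which activates RhoA at the cleavage furrow, did not pass (log2 change -0.27, adjusted p = 0.114), nor did the ring scaffold Anln (log2 change -0.19, adjusted p = 0.167); both passed, as did Ttk, without untreated WT replicate 3 (log2 change -0.44 for Ect2, -0.32 for Anln and -0.39 for Ttk).

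The 3 genes listed here under anaphase ubiquitin machinery, Ube2c, Cdc20 and Cdca3, fell as well. Cdca3 was placed in this group by the list, and a part of it in that machinery is not claimed. Ube2c, the conjugating enzyme of the anaphase-promoting complex (ENSMUSG00000001403.13, chr2:164769898-164778822), was at 249, 243 and 267 TPM untreated and 155, 151 and 147 TPM starved. No starved library came near the controls (log2 change -0.74 ± 0.063 SE, adjusted p = 3.68e-10). Cdc20, the activator of that complex, changed by -0.40 and Cdca3 by -0.46. Top2a, the topoisomerase that untangles sister chromatids (ENSMUSG00000020914.17, chr11:98992943-99024189), was at 424, 352 and 318 TPM untreated and 239.6, 233 and 236 TPM starved (log2 change -0.61 ± 0.081 SE, adjusted p = 9.73e-07). Mki67, the coat protein of mitotic chromosomes that gives the Ki-67 stain (ENSMUSG00000031004.8, chr7:135689784-135716361), was at 124, 92.2 and 65.8 TPM untreated and 45.9, 42.3 and 40.9 TPM starved. For both, untreated replicate 1 was the highest control and replicate 3 the lowest, and even the lowest control exceeded every starved library (Mki67 log2 change -1.06 ± 0.16 SE, adjusted p = 5.6e-06).

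Thapsigargin lowered 34 of the 36 members in WT cells relative to DMSO and raised 0, with a median log2 change of -0.60, a fall of 33.9%; over all genes 14.8% were lower and the median was -0.043. Changes ran from -1.11 for Plk1 to -0.087 for Anln. Plk1 was at 96.1, 97.1 and 96.1 TPM with DMSO and 45.4, 46.7 and 40.7 TPM with thapsigargin (log2 change -1.11 ± 0.048 SE, adjusted p = 3.4e-16). Mki67 was at 81.9, 57.9 and 79.6 TPM with DMSO and 41.8, 31.0 and 30.6 TPM with thapsigargin (log2 change -1.06 ± 0.16 SE, adjusted p = 6.63e-06). For Aurka the values were 104, 108 and 103 TPM against 48.7, 55.3 and 52.8 TPM (log2 change -0.99 ± 0.047 SE, adjusted p = 2.2e-15). In each of these 3 genes all treated libraries lay below all DMSO libraries. Anln did not pass (adjusted p = 0.597), nor did Ndc80 (log2 change -0.15, adjusted p = 0.197), which passed with untreated cells as the control (log2 change -0.26).

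Among the members of highest level in each group, Cdk1 was at 533, 553 and 563 TPM with DMSO and 383, 379.5 and 391 TPM with thapsigargin (log2 change -0.51 ± 0.051 SE, adjusted p = 8.76e-09). Cenpa was at 187, 179.6 and 184 and 124, 121 and 119.7 TPM (log2 change -0.59 ± 0.055 SE, adjusted p = 2.27e-09), and Ube2c at 223, 243 and 227 and 139, 151 and 143 TPM (log2 change -0.67 ± 0.063 SE, adjusted p = 2.72e-09). These 3 genes showed wide gaps between treated and DMSO libraries. Tpx2 was at 108, 97.1 and 109 and 82.7, 77.3 and 75.7 TPM (log2 change -0.41 ± 0.066 SE, adjusted p = 2.2e-05), and Top2a at 321, 292 and 325 and 244, 239.5 and 257 TPM (log2 change -0.34 ± 0.081 SE, adjusted p = 0.00233). Birc5 was at 214, 223 and 221 and 171, 183 and 189 TPM (log2 change -0.28 ± 0.051 SE, adjusted p = 0.000121), and with median-of-ratios rescaling its adjusted p was 0.0552. Racgap1 was at 195, 185 and 191 and 159, 155 and 157 TPM (log2 change -0.28 ± 0.065 SE, adjusted p = 0.00202). The latter 4 had smaller fitted changes, and their treated and DMSO libraries were still apart.

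By role, thapsigargin in WT lowered 6 of 6 cyclin, CDK1 and phosphatase genes (Ccnb1 -0.77, Ccna2 -0.63), 5 of 5 kinase and passenger genes, 7 of 8 kinetochore genes (Bub1b -0.85, Cenpe -0.86) and 6 of 6 spindle genes (Hmmr -0.92, Kif2c -0.86). It also lowered 5 of 6 cytokinesis genes, where Prc1 changed by -0.83 and Ect2 by -0.68, all 3 anaphase genes and both chromosome structure genes. Cdc25c changed by -0.22 (adjusted p = 0.0388), a call that ended without any 1 of DMSO replicates 1, 2 and 3 and thapsigargin replicates 1, 2 and 3 (adjusted p from 0.057 to 0.127). Over the 36 members the changes under starvation and under thapsigargin, which use different control libraries, correlated across genes at r = 0.65 (rho = 0.55), a description over genes of the same libraries. Between the change and the log2 mean TPM of a member, r was 0.25 with starvation and 0.20 with thapsigargin.

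**Figure D3:**
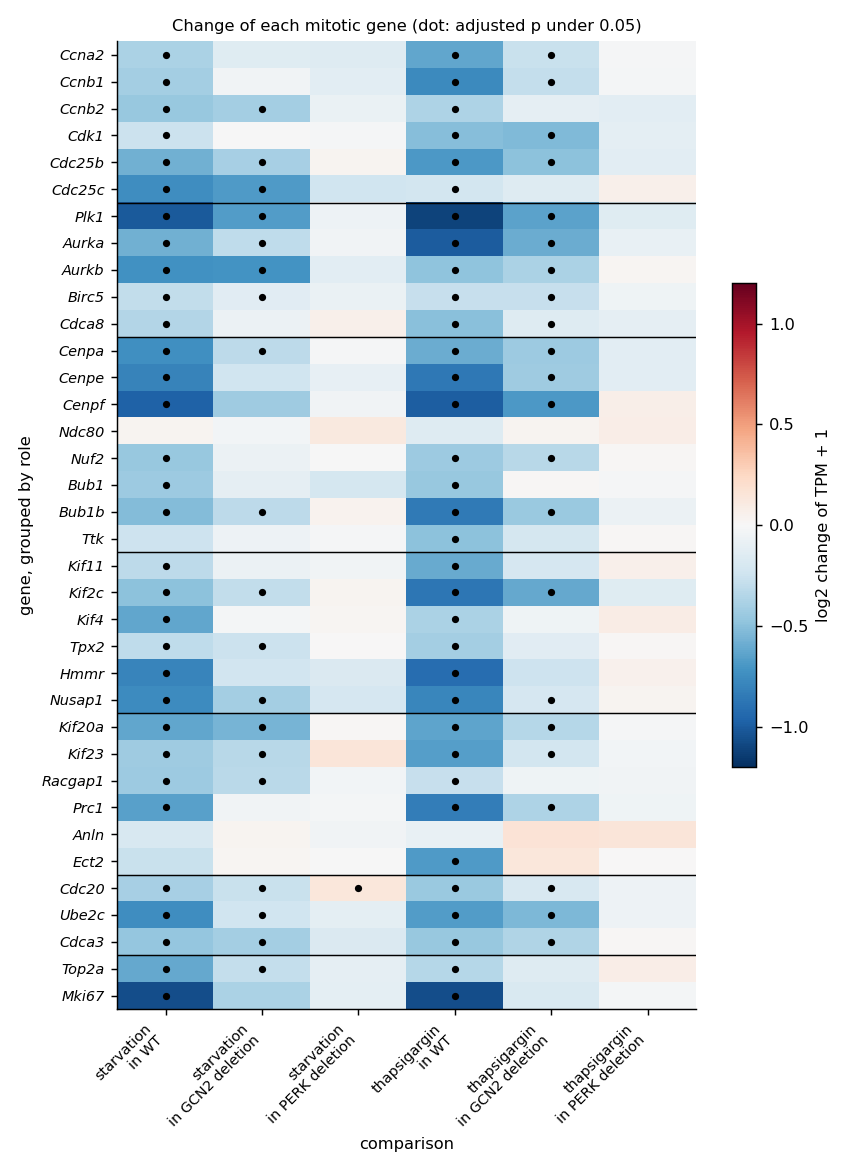
Log2 change of each member (rows, grouped by role between the lines) in the 6 stress comparisons (columns); blue is lower under stress, red higher, and a dot marks an adjusted p under 0.05. Dots fill 32 and 34 of 36 cells in the WT columns, 19 and 22 in the GCN2-deletion columns, 1 in the starved PERK-deletion column, where Cdc20 is higher, and 0 in the last.

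Starvation of the GCN2-deletion line lowered 19 members and raised 0, with a median log2 change of -0.26, a fall of 16.6%; 12.2% of all genes were lower and their median was -0.0015. The 3 largest changes were in Aurkb, Cdc25c and Plk1. Aurkb was at 106, 109 and 103 TPM untreated and 66.6, 61.7 and 64.1 TPM starved (log2 change -0.72 ± 0.076 SE, adjusted p = 5.16e-08). Cdc25c was at 25.4, 24.2 and 23.4 and 15.6, 14.6 and 14.1 TPM (log2 change -0.68 ± 0.08 SE, adjusted p = 2.82e-07), and Plk1 at 100.05, 99.0 and 100.4 and 63.2, 63.2 and 60.1 TPM (log2 change -0.67 ± 0.048 SE, adjusted p = 3.18e-11). All starved libraries lay below all untreated ones in these 3 genes. The Atf4 transcript did not pass in these same libraries, and the activity of the stress pathway was not measured.

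Cdk1 did not pass in this line, at 412, 415 and 427 TPM untreated and 412, 418 and 424 TPM starved (log2 change -0.00046 ± 0.051 SE, adjusted p = 1, 95% interval -0.11 to 0.11), and the groups overlapped. Prc1 was at 128, 124 and 131 TPM untreated and 123, 120.4 and 128 TPM starved (log2 change -0.046 ± 0.077 SE, adjusted p = 0.749). Kif4 was at 40.7, 36.9 and 43.9 and 40.01, 39.5 and 39.7 TPM (log2 change -0.024 ± 0.074 SE, adjusted p = 0.883). For Prc1 and Kif4 too the libraries overlapped, where in WT both genes had fallen. Cenpa was at 158, 165 and 158 TPM untreated and 126, 132 and 129 TPM starved (log2 change -0.31 ± 0.055 SE, adjusted p = 0.000107). Ube2c was at 257, 252 and 244 and 213, 206 and 218 TPM (log2 change -0.24 ± 0.063 SE, adjusted p = 0.00611), though with DMSO cells as the control its adjusted p was 0.0595. Both fell without overlap.

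Racgap1 was at 143, 144 and 151 TPM untreated and 115, 119.7 and 114 TPM starved (log2 change -0.32 ± 0.065 SE, adjusted p = 0.000489). Top2a was at 291, 273 and 284 and 232, 234 and 230.4 TPM (log2 change -0.28 ± 0.081 SE, adjusted p = 0.0118), and Tpx2 at 115, 106 and 119 and 94.7, 96.1 and 92.5 TPM (log2 change -0.26 ± 0.066 SE, adjusted p = 0.00444). The starved libraries of these 3 genes were below all controls. Birc5 was at 233, 252 and 231 and 212, 214 and 224 TPM (log2 change -0.14 ± 0.051 SE, adjusted p = 0.047); its call ended with DMSO as the control (log2 change -0.03) and without either of 2 starved or 2 untreated libraries (starved replicates 1 and 2, untreated replicates 1 and 2; adjusted p from 0.0601 to 0.252). By role, 3 of 6 cyclin, CDK1 and phosphatase genes fell, 4 of 5 kinase and passenger genes, 2 of 8 kinetochore genes, 3 of 6 spindle genes, 3 of 6 cytokinesis genes, 3 of 3 anaphase genes and 1 of 2 chromosome structure genes.

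Thapsigargin lowered 22 members and raised 0 in the GCN2-deletion line, again with a median of -0.26, a fall of 16.2%; 11.3% of all genes were lower, and the median of all genes was 0.078. Cenpf was at 46.6, 27.0 and 30.9 TPM with DMSO and 24.7, 19.7 and 18.2 TPM with thapsigargin (log2 change -0.68 ± 0.19 SE, adjusted p = 0.00545), and the fall rested on DMSO replicate 1, without which its adjusted p was 0.0655 (log2 change -0.46). Plk1 was at 102, 101 and 100.1 TPM with DMSO and 63.9, 64.5 and 64.7 TPM with thapsigargin (log2 change -0.64 ± 0.048 SE, adjusted p = 2.57e-11). Kif2c was at 66.8, 65.5 and 61.0 and 43.9, 40.4 and 40.9 TPM (log2 change -0.61 ± 0.047 SE, adjusted p = 3.08e-11). In Plk1 and Kif2c the treated libraries lay far below the DMSO libraries.

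Cdk1, which had not passed with starvation, fell from 419.7, 449 and 433 TPM with DMSO to 286, 308 and 306 TPM (log2 change -0.53 ± 0.051 SE, adjusted p = 3.42e-09). Ube2c was at 251, 232 and 235 and 165, 152 and 177 TPM (log2 change -0.54 ± 0.063 SE, adjusted p = 1.13e-07), and Cenpa at 164, 154 and 158 and 118, 114 and 121 TPM (log2 change -0.43 ± 0.055 SE, adjusted p = 4.48e-07). Together with Birc5, at 211, 225 and 227 and 187, 176 and 183 TPM (log2 change -0.28 ± 0.051 SE, adjusted p = 8.35e-05), these genes showed no overlap between the groups. Top2a was at 303, 258 and 263 and 258, 226 and 255 TPM (log2 change -0.16 ± 0.081 SE, adjusted p = 0.142), Racgap1 at 160.3, 147 and 149 and 154, 134 and 152 TPM (log2 change -0.053 ± 0.065 SE, adjusted p = 0.575) and Tpx2 at 114, 115 and 112 and 109, 97.7 and 104 TPM (log2 change -0.13 ± 0.066 SE, adjusted p = 0.116). None of the latter 3 passed; with median-of-ratios rescaling, which removes the upward shift of all genes, all 3 did (adjusted p = 1.87e-05, 9.3e-05 and 1.5e-06). Ect2 and Anln had positive changes that did not pass (0.13, adjusted p = 0.449, and 0.16, adjusted p = 0.206), and Anln passed with untreated cells as the control (adjusted p = 0.0278). By role, 4 of 6 cyclin, CDK1 and phosphatase genes fell, 5 of 5 kinase and passenger genes, 5 of 8 kinetochore genes, 2 of 6 spindle genes, 3 of 6 cytokinesis genes, 3 of 3 anaphase genes and 0 of 2 chromosome structure genes.

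Of the 36 members 1 passed with starvation of the PERK-deletion line, Cdc20, and it rose (log2 change 0.13 ± 0.042 SE, adjusted p = 0.0338); 0 fell, 6 had an unadjusted p under 0.05, and the median was -0.039 (-0.10 without untreated replicate 3 and -0.013 without untreated replicate 1). By adjusted p 5.75% of all genes rose and 6.39% fell. The share of all genes at the unadjusted threshold is not given here, so the count of 6 is not read as a result. Cdc20 was at 198, 196 and 179 TPM untreated and 217, 205 and 207 TPM starved, and its call ended without starved replicate 1 or 3 or untreated replicate 3 (adjusted p = 0.148, 0.0538 and 0.207) and with DMSO cells as the control. The count that fell depended on the control: against DMSO cells 8 members were lower and 0 higher, and without untreated replicate 3, 5 were lower. The largest changes were in Cdc25c, at 32.6, 33.3 and 29.9 TPM untreated and 27.5, 25.9 and 27.5 TPM starved (log2 change -0.24 ± 0.08 SE, adjusted p = 0.0518), Bub1 (-0.21, adjusted p = 0.251) and Nusap1 (-0.20, adjusted p = 0.08). The Cdc25c libraries did not overlap, and it passed without untreated replicate 3 (adjusted p = 0.0377), as did Nusap1 and Ube2c.

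Cdk1 was at 487, 494 and 521 TPM untreated and 559, 477 and 458 TPM starved (log2 change -0.013 ± 0.051 SE, adjusted p = 0.939, 95% interval -0.12 to 0.093). Ube2c was at 334, 317 and 278 and 314, 269 and 271 TPM (log2 change -0.12 ± 0.063 SE, adjusted p = 0.26), and Cenpa at 183, 194 and 178 and 209.8, 175 and 166 TPM (log2 change -0.016 ± 0.055 SE, adjusted p = 0.925). In these 3 genes starved replicate 1, a library with a low mitochondrial share, was the highest of its group, and the groups overlapped. Plk1 was at 78.6, 74.1 and 70.3 TPM untreated and 72.6, 73.3 and 67.6 TPM starved (log2 change -0.061 ± 0.048 SE, adjusted p = 0.488, 95% interval -0.16 to 0.037). Birc5 was at 239.5, 251 and 247 and 253, 224 and 222 TPM, and Tpx2 at 123, 124 and 100.3 and 118, 115 and 116 TPM. Plk1, Birc5 and Tpx2 overlapped as well. Racgap1 was at 189, 185 and 148 and 167, 165 and 173 TPM, and Top2a at 377, 356 and 299 and 321, 308 and 327 TPM; in both the untreated libraries spread more widely than the starved ones.

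Thapsigargin in the PERK-deletion line changed 0 of the 36 members by limma, where 5.30% of all genes changed by the same adjusted p. At an unadjusted p under 0.05 there were 6 members, with no share of all genes given at that threshold. The median was -0.019 (-0.051 without DMSO replicate 3 and 0.0022 without DMSO replicate 1). The range was -0.15 to 0.14. Plk1, at 79.6, 87.2 and 79.3 TPM with DMSO and 74.6, 73.4 and 74.0 TPM with thapsigargin, gave a log2 change of -0.15 (adjusted p = 0.0811). Kif2c, at 96.5, 99.0 and 93.4 and 86.5, 88.5 and 86.7 TPM, gave -0.14 (adjusted p = 0.0811), and Anln, at 200.5, 199.8 and 181 and 212, 217 and 213 TPM, gave 0.14 (adjusted p = 0.573). All treated libraries lay below the DMSO ones for Plk1 and Kif2c and above them for Anln, and yet none of the 3 passed.

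For Cdk1 the values were 539, 545 and 517 TPM with DMSO and 493, 496 and 491 TPM with thapsigargin (log2 change -0.11 ± 0.051 SE, adjusted p = 0.275, 95% interval -0.22 to -0.007). For Ube2c they were 305, 323 and 301 and 297, 299.5 and 291 TPM, for Cenpa 181, 191 and 194 and 178, 169 and 173 TPM, and for Birc5 248, 256 and 246 and 238, 244 and 240.4 TPM. Each of these members was lower on average with thapsigargin, by at most 0.12 on the log2 scale. Tpx2 was at 133, 129 and 122 and 126, 130.2 and 129.7 TPM, Racgap1 at 193, 191 and 185 and 182, 184 and 185 TPM and Top2a at 376, 366 and 340.4 and 372, 393 and 379.9 TPM. Treated libraries of Cdk1, Ube2c, Cenpa, Birc5 and Racgap1 lay below the DMSO ones, while those of Tpx2 and Top2a overlapped with them. For Racgap1 the gap was only 185.206 TPM for the highest treated library against 185.226 TPM for the lowest DMSO one. Across the whole set of members, treated libraries lay wholly below the DMSO ones in 11, wholly above in 3 and overlapped in 22. No share of all genes is given for such separation, so these counts have nothing to be read against. A p that misses the threshold does not show that levels were equal; the intervals given bound what a change could be in these libraries.

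**Figure D4:**
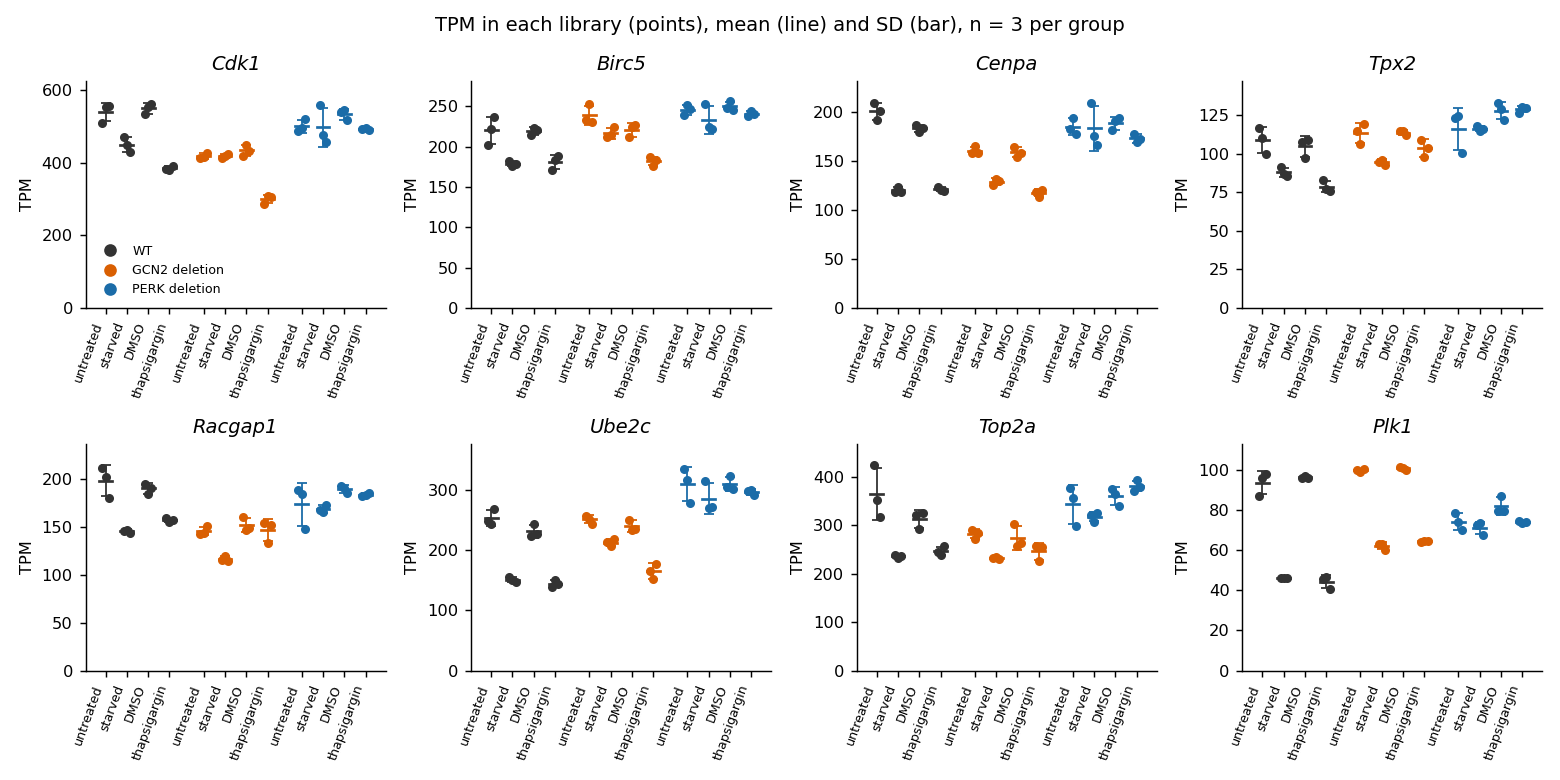
TPM of Cdk1, Birc5, Cenpa, Tpx2, Racgap1, Ube2c, Top2a and Plk1 in each library (points) with group mean (line) and SD (bar), n = 3 per group, from 0 on each axis. Stressed WT points lie below their controls in every panel, GCN2-deletion points differ by gene (Cdk1 falls with thapsigargin and not with starvation), and PERK-deletion points stay near their controls.

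DMSO against untreated cells changed 0 members in WT and 0 in the GCN2-deletion line by limma, where 0.118 and 0.149% of all genes changed. At an unadjusted p under 0.05 there were 7 and 3 members, with no share of all genes given at that threshold. With PERK deleted Aurka alone rose, from 109, 107 and 102 TPM untreated to 125, 127 and 119 TPM with DMSO (log2 change 0.22 ± 0.047 SE, adjusted p = 0.0432), where 0.137% of all genes did, and the call ended without any of the 3 DMSO libraries or untreated replicate 2 or 3 (adjusted p from 0.0503 to 0.168). The median changes were small and moved with single libraries. In WT the median was -0.078, and -0.15 without untreated replicate 3 and -0.024 without untreated replicate 1. With GCN2 deleted it was 0.042, and 0.0066 without untreated replicate 2, and with PERK deleted 0.12, and 0.028 without untreated replicate 3. The largest changes with DMSO in WT were in Mki67 (-0.33), Cenpe (-0.28) and Bub1 (-0.24), all short of the threshold (adjusted p = 0.35, 0.457 and 0.311). Without untreated WT replicate 3, 5 members were lower with DMSO and 1 was higher.

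The lines also differed before stress. In the untreated PERK-deletion line 18 members were higher than in WT and 5 lower, with a median difference of 0.14, against 31.2% higher and 18.6% lower over all genes and a median of 0.080. The B-type cyclins stood out. Ccnb2 was at 53.9, 56.4 and 58.1 TPM in WT and 146, 147 and 130.004 TPM in the PERK-deletion line (log2 difference 1.31 ± 0.049 SE, adjusted p = 1.13e-18). Ccnb1 was at 154, 151 and 133 and 238, 247 and 231 TPM (log2 difference 0.71 ± 0.056 SE, adjusted p = 2.15e-11), and Kif23 at 132, 117 and 99.0 and 205, 193 and 165 TPM (log2 difference 0.69 ± 0.086 SE, adjusted p = 1.24e-07). No library of these 3 genes overlapped between the lines. The lower members were Mki67 (-0.40), Plk1 (-0.33), Kif11 (-0.32), Prc1 (-0.29) and Racgap1 (-0.19); Plk1 and Prc1 libraries were apart, the others overlapped. The Mki67 call ended without any 1 of untreated PERK-deletion replicates 2 and 3 and untreated WT replicates 1 and 2 (adjusted p from 0.0531 to 0.353), that of Kif11 without any 1 of untreated PERK-deletion replicate 3 and untreated WT replicate 1 (adjusted p from 0.138 to 0.141) and that of Racgap1 without any 1 of untreated PERK-deletion replicate 3 and untreated WT replicates 1 and 2 (adjusted p from 0.0501 to 0.226). The count of lower members was 13 with median-of-ratios rescaling, 1 with DMSO cells of both lines, 2 without untreated PERK-deletion replicate 3 and 3 without untreated WT replicate 1, and Mki67 turned to 0.01 with the DMSO cells. Of the fibroblast markers 1 was higher and 7 lower in this line than in WT, and their summed level was 2849 to 3114 TPM against 3926 to 4555 TPM; their part in the member differences was not tested.

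Untreated GCN2-deletion cells differed from WT in 6 members that were higher and 10 that were lower, with a median of -0.014, against 21.2 and 23.2% over all genes and a median of -0.047. The members' median was -0.10 without untreated WT replicate 3 and -0.0015 without untreated WT replicate 2. Kif23 was higher, at 161, 155 and 167 TPM against 132, 117 and 99.0 TPM in WT (log2 difference 0.48, adjusted p = 3.85e-05), without overlap. Cdc25b was lower, at 55.3, 54.4 and 55.3 TPM against 119.5, 79.9 and 73.2 TPM (log2 difference -0.68, adjusted p = 5.99e-05); WT replicate 1 was far above the other WT libraries, and all exceeded the GCN2-deletion libraries. Racgap1 was lower too (log2 difference -0.44, adjusted p = 2.86e-06), with the library values given above. Cdk1 (-0.37) and Cenpa (-0.32) were lower and Ccnb2 (0.39) higher. With DMSO cells of both lines the split turned to 10 higher and 5 lower, so no direction can be given for the set between these lines.

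Whether the stress effects differed between lines was tested as the difference of effects; a positive value means that the gene fell less in the deletion line than in WT. These comparisons share the WT libraries. For starvation, the PERK-deletion line differed in 27 members, all positive, against 5.58% of all genes, with a median of 0.52. The largest differences were in Mki67 (difference 0.95 ± 0.22 SE, adjusted p = 0.00461), Plk1 (difference 0.94 ± 0.068 SE, adjusted p = 9.28e-11) and Cenpf (difference 0.93 ± 0.27 SE, adjusted p = 0.0224). The Cenpf call ended without any 1 of starved PERK-deletion replicate 3, untreated PERK-deletion replicate 3, starved WT replicate 3 and untreated WT replicate 1 (adjusted p from 0.0511 to 0.0832). Cenpa (0.72), Ube2c (0.62), Top2a (0.51), Racgap1 (0.40), Tpx2 (0.31) and Cdk1 (0.25) passed, and Birc5 did not (0.22, adjusted p = 0.0539). The Tpx2 call ended without any 1 of untreated PERK-deletion replicate 3, starved WT replicates 2 and 3 and untreated WT replicate 1 (adjusted p from 0.0553 to 0.0947), and the Cdk1 call without any 1 of starved PERK-deletion replicate 1, untreated PERK-deletion replicates 1 and 2, starved WT replicate 3 and untreated WT replicates 2 and 3 (adjusted p from 0.0506 to 0.0835); Birc5 passed without any 1 of starved PERK-deletion replicates 2 and 3 and untreated WT replicate 1 (adjusted p from 0.00898 to 0.0454). With DMSO cells as the control 14 members passed, and with the compared groups fitted alone 13.

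For starvation in the GCN2-deletion line, 12 members differed from WT, all positive, against 3.69% of all genes, with a median of 0.25; without untreated WT replicate 3 the count was 19. Prc1 (difference 0.61 ± 0.11 SE, adjusted p = 0.000309) and Kif4 (difference 0.60 ± 0.11 SE, adjusted p = 0.000256) had the largest differences that passed, and Mki67 had a larger one that did not (difference 0.69 ± 0.22 SE, adjusted p = 0.0576). Hmmr (0.56), Ube2c (0.50), Cenpa (0.42) and Cdk1 (0.26) were among the others. Aurkb (0.012), Tpx2 (0.047), Ccnb2 (0.047) and Cdc25c (0.065) had differences near 0, and each of these 4 fell in both lines. The Cdk1 call ended without any 1 of starved GCN2-deletion replicate 3, untreated GCN2-deletion replicate 1, starved WT replicate 3 and untreated WT replicate 2 (adjusted p from 0.0561 to 0.0799), and that of Hmmr without any 1 of starved GCN2-deletion replicate 2, untreated GCN2-deletion replicate 2, starved WT replicate 3 and untreated WT replicates 1 and 2 (adjusted p from 0.0553 to 0.0805); Mki67 passed without any 1 of untreated GCN2-deletion replicate 3 and untreated WT replicate 3 (adjusted p from 0.00262 to 0.04).

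For thapsigargin, the PERK-deletion line differed from WT in 31 members, all positive, against 5.59% of all genes, with a median of 0.53. Cenpf (difference 1.06 ± 0.27 SE, adjusted p = 0.00756), Mki67 (difference 1.04 ± 0.22 SE, adjusted p = 0.00171) and Hmmr (difference 0.97 ± 0.15 SE, adjusted p = 4.33e-05) differed most, and Racgap1, Anln, Ndc80, Cdc25c and Bub1 did not pass. The GCN2-deletion line differed in 19, all positive, against 12.3% of all genes, with a median of 0.29. There Mki67 (difference 0.88 ± 0.22 SE, adjusted p = 0.01), Ect2 (difference 0.82 ± 0.18 SE, adjusted p = 0.00307) and Hmmr (difference 0.67 ± 0.15 SE, adjusted p = 0.00483) differed most, while Cdk1 (-0.018, adjusted p = 0.909), Birc5 (-0.00048, adjusted p = 1) and Ube2c (0.14, adjusted p = 0.336) did not pass. The median of all genes in that comparison was 0.13, and with median-of-ratios rescaling, which removes such a shift, 7 members were called; with untreated cells as the control there were 29.

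**Figure D5:**
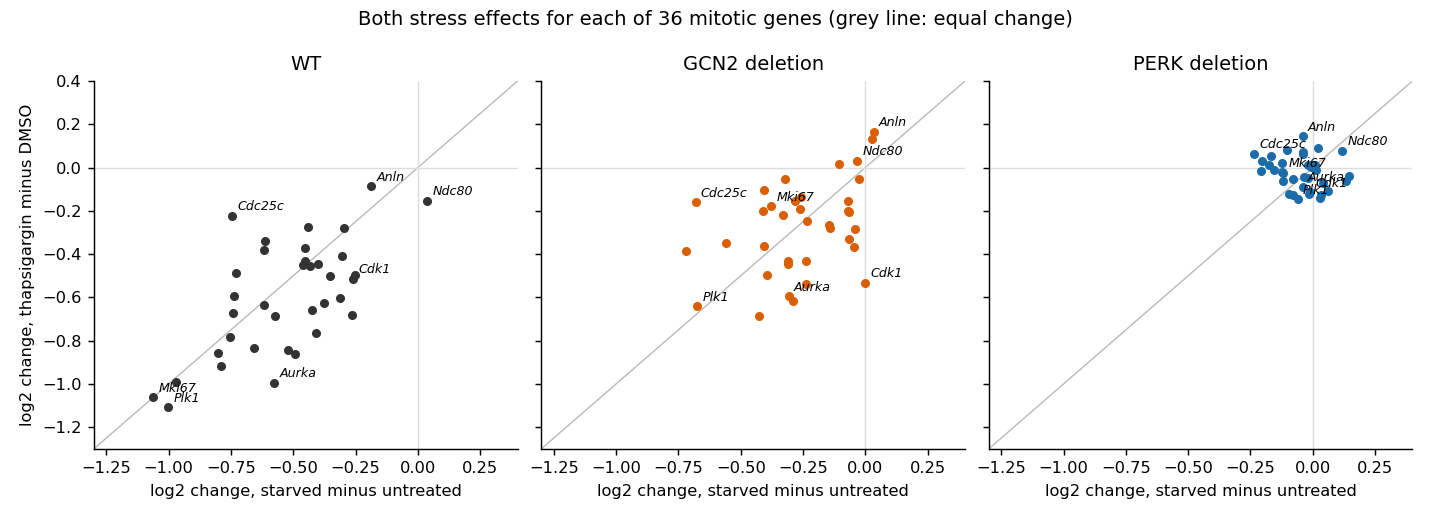
Each point is 1 of the 36 members; x is its log2 change with starvation (starved minus untreated), y with thapsigargin (thapsigargin minus DMSO), in WT, the GCN2-deletion and the PERK-deletion lines, and the grey line marks equal change. WT points spread to -1.06 on x and -1.11 on y, GCN2-deletion points to -0.72 and -0.68, and PERK-deletion points lie around 0.

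The effects of the 2 stresses were then set against each other. In WT, 4 members fell less with starvation than with thapsigargin (5.77% of all genes), namely Aurka (difference 0.42, adjusted p = 5.52e-05), Kif2c (0.37), Ccnb1 (0.36) and Cdk1 (0.25), whose call ended without any 1 of starved replicate 1, DMSO replicate 3, thapsigargin replicate 2 and untreated replicate 1 (adjusted p from 0.052 to 0.0725). Cdc25c fell more with starvation (-0.52, adjusted p = 0.00176; 6.17% of all genes). The Aurka and Cdc25c calls ended with the other control of each stress, where 12 members fell less with starvation and 0 fell more. Without untreated or DMSO replicate 2 there were 7, and without untreated replicate 3, 3 fell more. For the GCN2-deletion line 7 members fell less with starvation and 5 fell more (7.25 and 17.2% of all genes). Cdk1 differed most (0.53 ± 0.073 SE, adjusted p = 2.42e-06), followed by Cdc25c in the opposite direction (-0.52) and Aurkb (-0.33), whose call ended without any 1 of starved replicate 2 and DMSO replicates 2 and 3 (adjusted p from 0.057 to 0.0835). The former count was 4 without untreated replicate 2 and 3 without thapsigargin replicate 2, and the latter was 3 without any 1 of starved replicate 3, untreated replicate 3, DMSO replicates 2 and 3 and thapsigargin replicate 1. With PERK deleted Cdc20 alone differed (0.20; 5.34% of all genes), a call that ended without any 1 of starved replicate 1, DMSO replicate 2, thapsigargin replicates 1, 2 and 3 and untreated replicate 3 (adjusted p from 0.0513 to 0.115), and with the other controls the sign turned (-0.074).

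Other genes of the cell cycle were counted from separate lists, to be read against the shares of all genes. In WT 12.5% of all genes rose and 17.4% fell with starvation, and 11.4% rose and 14.8% fell with thapsigargin. With GCN2 deleted 11.7% rose and 12.2% fell with starvation, and 25.4% rose and 11.3% fell with thapsigargin. With PERK deleted the shares were 5.75 and 6.39% with starvation and 2.50 and 2.80% with thapsigargin. Of 74 further mitotic genes tested, 42 fell and 0 rose in starved WT cells, led by Sapcd2 (-1.21) and Pimreg (-1.13), and 47 fell and 3 rose with thapsigargin, led by Ccnf, which encodes cyclin F (-1.48), and the kinesin Kif14 (-1.303). With GCN2 deleted 27 fell and 2 rose with starvation, and 29 fell and 10 rose with thapsigargin. With PERK deleted 4 fell and 1 rose with starvation, and 1 fell and 1 rose with thapsigargin. Mis12, a kinetochore gene, rose with thapsigargin in all 3 lines (0.34, 0.85 and 0.52).

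The 40 DNA replication and G1/S genes moved in both directions. In starved WT cells 7 rose and 10 fell, with a median of 0.054 where that of all genes was -0.047, and with thapsigargin 14 rose and 5 fell, where 11.4% of all genes rose and 14.8% fell. The licensing factors Cdc6 (0.92) and Cdt1 (0.75) rose most with thapsigargin in WT, and the G1/S cyclins Ccne1 (-0.68) and Ccne2 (-0.53) fell most. With GCN2 deleted 12 rose and 3 fell with starvation, and 22 rose and 3 fell with thapsigargin, where 25.4% of all genes rose, Cdt1 by 1.204 and Cdc6 by 1.03. With PERK deleted 1 rose and 1 fell in each stress; with thapsigargin Cdc6 rose (0.63).

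Of 24 regulators of the late cell cycle (FOXM1, B-MYB, the MuvB subunits and E2F factors), 3 rose and 3 fell in starved WT cells, and 5 rose and 4 fell with thapsigargin. Over all genes 12.5% rose and 17.4% fell with starvation, and 11.4% rose and 14.8% fell with thapsigargin. Foxm1, the activator of G2/M promoters, was at 109 ± 21.8 TPM untreated and 83.4 ± 0.954 TPM starved (log2 change -0.37, adjusted p = 0.00971), and at 91.1 ± 6.10 TPM with DMSO and 76.1 ± 7.68 TPM with thapsigargin, where it did not pass (log2 change -0.26, adjusted p = 0.0774). DMSO against untreated WT cells gave Foxm1 a log2 change of -0.24 that did not pass (adjusted p = 0.306). The split of Foxm1 between the stresses therefore cannot be told apart from the choice of control. Mybl2, which encodes B-MYB, rose with thapsigargin in WT (log2 change 0.40, adjusted p = 0.00259) and did not pass with starvation (0.16, adjusted p = 0.241). The part of either transcript in the members' changes was not tested. E2f8, a repressor of E2F targets, fell with starvation (-0.56) and Tfdp2, a partner of E2F, rose (0.59). Nfya, a subunit of the CCAAT-binding factor NF-Y, fell with thapsigargin in WT (-0.75, adjusted p = 4.02e-07), as did E2f6 (-0.55). E2f6 fell with starvation in WT too (-0.28, adjusted p = 0.0264). Of the other NF-Y subunits Nfyc rose with thapsigargin in WT (0.16, adjusted p = 0.0464) and Nfyb did not pass (0.052, adjusted p = 0.809). In starved WT cells Nfya did not pass (-0.21, adjusted p = 0.094). With GCN2 deleted 12 of these regulators rose and 1 fell with thapsigargin, where 25.4% of all genes rose and 11.3% fell. Among the 12 were the MuvB subunits Lin52 (0.93) and Lin54 (0.55), E2f2 (0.56), E2f7 (0.67) and the retinoblastoma gene Rb1 (0.54). With starvation 4 rose and 2 fell in that line, with E2f7 at 0.60, where 11.7% of all genes rose and 12.2% fell. With PERK deleted 0 passed under either stress, where 5.75% of all genes rose and 6.39% fell with starvation. With thapsigargin those shares were 2.50 and 2.80%. At an unadjusted p under 0.05 there were 4 with starvation and 3 with thapsigargin, again with no share of all genes given.

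Among 17 genes that restrain CDK activity, Gadd45a, a stress-induced inhibitor of cyclin B with CDK1, rose furthest. It went from 12.01 ± 0.356 to 150.4 ± 16.0 TPM in starved WT cells (log2 change 3.54, adjusted p = 6.81e-20) and from 11.9 ± 1.28 to 206 ± 2.44 TPM with thapsigargin (4.01). With GCN2 deleted it fell with starvation (-0.57) and rose with thapsigargin from 8.66 ± 1.57 to 174 ± 5.84 TPM (4.19). With PERK deleted it was at 21.7 ± 1.03 TPM untreated and 20.1 ± 2.50 TPM starved, and rose with thapsigargin from 21.9 ± 2.23 to 33.0 ± 1.44 TPM (0.57). Cdkn1a, which encodes p21, rose with thapsigargin in WT (0.56) and with GCN2 deleted (0.64), and also with starvation in WT (0.29, adjusted p = 0.00166). Cdkn2d, which encodes an inhibitor of the INK4 family, fell with starvation in WT (-1.19), the GCN2-deletion line (-0.68) and the PERK-deletion line (-0.73). It also fell with thapsigargin in WT (-0.28, adjusted p = 0.0178). Chek2, the checkpoint kinase, fell with starvation in WT (-0.59) and with GCN2 deleted (-0.97). In WT, Chek2 also changed by -0.36 with DMSO alone, short of the threshold (adjusted p = 0.187). Chek1 rose in starved WT cells (0.35, adjusted p = 0.0171). Fzr1, the activator of the anaphase-promoting complex in G1, fell in WT with thapsigargin (-0.59) and with starvation (-0.49, adjusted p = 5.8e-07). Most genes were named for a log2 change of at least 0.5, so a gene named for 1 stress may have passed with the other. Over the list 4 rose and 8 fell in starved WT cells, where 12.5% of all genes rose and 17.4% fell, and 6 rose and 6 fell with thapsigargin, where the shares were 11.4 and 14.8%.

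Within the set, members followed each other closely over the 12 group means, centred within each line. The correlation of a member with the mean of the other 35 was highest for Cenpf (r = 0.99) and Cenpe (r = 0.98) and lowest for Ndc80 (r = 0.34), Anln (r = 0.36), Cdc25c (r = 0.70), Ect2 (r = 0.75) and Cdk1 (r = 0.77). Among 10437 other genes with a mean of at least 5 TPM, the patterns most like the members' mean over these 12 group means were those of Sema6c (r = 0.99), Prr11, Dnajc14, Cenpl, Ago1, Trmt2b, Tram2, Arl5a, Scoc and Adamts4 (the last at r = 0.97), of which only Cenpl was on the list of other mitotic genes. These values describe group means of the same libraries and carry no test.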

How the data were processed

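RNA sequencing libraries of 36 samples (12 groups of 3) were made with a stranded Illumina TruSeq protocol, per the labels' protocols. FastQC, kallisto and the mm10 build are named in the submitters' processing notes, with versions not given in the sources used here. The deposited table holds TPM per gene symbol for 54735 symbols, computed by the authors from the reads; depth is not kept. Here log2(TPM + 1) of the 16083 genes with at least 1 TPM in 3 libraries was fitted in limma 3.58.1 (R 4.3.3) with 1 mean per group over all 36 libraries (24 residual degrees of freedom) and a variance trend, and p-values were adjusted by Benjamini-Hochberg over all genes in each of 18 comparisons. The script recovered most of the larger planted changes in data simulated with normal noise, as its model assumes. That does not measure recovery in these libraries. The scale of log2 values was computed here from the authors' TPM.

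The members and gene lists were chosen with earlier results of these data known. Library values are given for the member of each functional group with the highest mean TPM and for the 3 largest changes; from other lists, regulators and brakes that passed with a log2 change of at least 0.5 in the stress comparisons were eligible, and up to 2 genes in each direction from the others. Genes beyond these, such as Atf4, Foxm1 and Mybl2, were chosen after their values were seen. Promoter windows came from RefSeq on GRCm38.p6, near copies from BLAST 2.17.0 (at least 90% identity over 300 bases) and figures from matplotlib 3.10.9 in Python 3.11.15. Replicate numbers did not pair the libraries, so no block was used. The alternatives tried were the control, scaling, variance model, filter, pseudocount, libraries fitted and single libraries left out.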

Additional observations from a re-analysis of the deposited data

Results flagged for a closer look

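The members listed here had stress effects that differed between lines or between stresses by limma's test of the difference itself; the list was limited to the member of highest level in each functional group and the 3 largest differences of each comparison. Values are differences of log2 changes, positive where the gene fell less in the deletion line than in WT. The comparisons of both deletion lines share the WT libraries, and a line is 1 line per genotype. Some of these calls ended with another control or without a single library, as given above.

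For starvation, the GCN2-deletion line differed from WT in Cdk1 (0.26), Cenpa (0.42), Ube2c (0.50), Kif4 (0.60) and Prc1 (0.61). The PERK-deletion line differed in Cdk1 (0.25), Tpx2 (0.31), Racgap1 (0.40), Top2a (0.51), Ube2c (0.62), Cenpa (0.72), Cenpf (0.93), Plk1 (0.94) and Mki67 (0.95). For thapsigargin, the GCN2-deletion line differed in Tpx2 (0.27), Hmmr (0.67), Ect2 (0.82) and Mki67 (0.88), and the PERK-deletion line in Birc5 (0.22), Cdk1 (0.40), Tpx2 (0.42), Top2a (0.42), Cenpa (0.47), Ube2c (0.61), Hmmr (0.97), Mki67 (1.04) and Cenpf (1.06).

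Starvation also differed from thapsigargin, where a positive value marks a smaller fall with starvation. In WT the differences were in Cdc25c (-0.52), Cdk1 (0.25) and Aurka (0.42). The Cdc25c and Aurka calls in WT ended with the other control of each stress, and the Cdk1 call without any 1 of several libraries. In the GCN2-deletion line the differences were in Cdc25c (-0.52), Aurkb (-0.33), Racgap1 (-0.27), Ube2c (0.30) and Cdk1 (0.53). Of these Cdk1 in that line differed most, at 412, 415 and 427 TPM untreated, 412, 418 and 424 TPM starved, 419.7, 449 and 433 TPM with DMSO and 286, 308 and 306 TPM with thapsigargin.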

How the results depend on the processing

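The alternatives were another control (DMSO for untreated cells and the reverse), median-of-ratios rescaling, quantile normalization, variances without a trend, other filters (none, or 5 TPM), a pseudocount of 0.1, the compared groups fitted alone, a replicate block and, chosen after seeing the data, protein-coding genes only. The falls in WT kept their count within 1.5 times under each: starvation 32 lower, and 31 to 35 with a library left out; thapsigargin 34 lower, and 33 with any library left out. In the GCN2-deletion line the lower counts were 17 to 20 for starvation and 17 to 22 for thapsigargin with a library left out; 1 member was higher with thapsigargin with the other control and with the groups alone.

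Starvation in the PERK-deletion line moved with most settings: 0 higher with the other control, median-of-ratios, quantile, no trend, no filter or the groups alone; 8 lower with the other control, 3 with median-of-ratios, 8 with quantile, 1 at 5 TPM and 2 with the replicate block (0 to 1 higher and 0 to 5 lower with a library left out); Cdc20 turned to -0.00047 and Kif2c to -0.14 with the other control. With thapsigargin 1 member was lower with quantile or the groups alone and 2 with protein-coding genes only. For DMSO with PERK deleted, 0 were higher with median-of-ratios, quantile, no trend or the groups alone (0 to 1 with a library left out; in WT 0 to 1 higher and 0 to 5 lower).

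Between untreated lines, GCN2 deletion against WT gave 10 higher with the other control or median-of-ratios, 5 lower with the other control and 3 with the groups alone. PERK deletion gave 11 higher with the groups alone, and 1 lower with the other control or the groups alone but 13 with median-of-ratios (2 to 6 with a library left out); Aurkb turned to 0.25, Mki67 to 0.010 and Top2a to 0.21 with the other control. The starvation difference of the PERK-deletion line had 14 members with the other control and 13 with the groups alone (22 to 28 with a library left out; GCN2 deletion 9 to 19), and the thapsigargin difference of the GCN2-deletion line 29 and, with median-of-ratios, 7 (14 to 20; PERK deletion 27 to 30).

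Starvation against thapsigargin in WT gave 12 higher with the other control and 7 with median-of-ratios, and 0, 5 and, with quantile, 3 lower (3 to 7 higher and 1 to 3 lower with a library left out); Mki67 turned to 0.65. In the GCN2-deletion line it gave 11 higher with median-of-ratios and 4 with protein-coding genes, and 1 lower with median-of-ratios (3 to 7 and 3 to 6); Ccnb1 turned to -0.033 with the other control. In the PERK-deletion line it gave 0 higher with the other control, median-of-ratios, quantile, no trend, no filter or the groups alone, 3 with protein-coding genes, and 9, 2 and 1 lower with the other control, median-of-ratios and quantile (0 to 2 higher with a library left out); Aurka turned to -0.40, Cdc20 to -0.074 and Kif20a to -0.23. The causes were not tested.

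Replicate numbers did not pair the libraries: in 0 of 11 comparisons did every same-numbered pair deviate together (correlations -0.179 to 0.155). With the replicate block the count for starvation was 33 in WT, 20 in the GCN2-deletion line and 2 lower in the PERK-deletion line, the only count the block moved by over 1.5 times. TPM keeps no read depth, so the precision of genes at low level cannot be given, and technical replicates leave the spread between cultures unmeasured.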

Other observations

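Genes outside the mitotic lists that were named for their likeness to the members' pattern included Sema6c, a semaphorin, Dnajc14, a co-chaperone of the ER, and Ago1, an Argonaute protein. Prr11, at r = 0.98, and Cenpl, at r = 0.98, were the nearest among genes with a known role in dividing cells. These genes were chosen for this likeness, so their values carry no test.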
